A study of Mus musculus with 4 samples.

Results

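The liver of F/F mice on high-fat diet (HFD) was set against the liver of F/F mice on chow, gene by gene. Both arrays of F/F liver were used, of 4 arrays in all, and each measured 1 liver RNA sample. F/F mice carry both alleles of Lpiat1 with loxP sites and no Cre, so that the gene is intact, and they served as the controls of LKO mice, in which Cre under the albumin promoter removes Lpiat1 from hepatocytes. All 4 arrays came from male mice on a C57BL/6 background, 24 weeks old and housed with free access to food and water. The chow mice ate the standard diet CE2 and the HFD mice ate HFD-60 for 18 weeks from 6 weeks of age. Whether an RNA sample came from 1 mouse or from a pool is not stated in the sources used here. Nor are the hour at which the livers were taken and whether the mice were fasted before. With 1 array per group no difference could be tested, and every value below describes these livers only.

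The liver takes up fatty acids from the blood, makes more from sugar, burns them in mitochondria and peroxisomes, stores the remainder as triglyceride in lipid droplets and exports part of it in lipoproteins. Long feeding of fat fills hepatocytes with droplets. The nuclear receptor PPAR alpha drives the genes of fat burning, PPAR gamma those of fat storage, and the SREBP factors those of fatty acid and cholesterol synthesis. Resident macrophages, called Kupffer cells, stellate cells that lay down collagen, and recruited blood cells share the organ with the hepatocytes. In a bulk sample, fewer cells of a type and less RNA per cell cannot be told apart.

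Signals below are the processed signal of the brightest probe of a gene, as the scanner software gave it, in arbitrary units. Differences are HFD minus chow on the log2 scale, after the 75th percentile of the spots that are not controls was subtracted from each array (a signal of 222 in F/F chow and 263 in F/F HFD), so that equal signals give a difference below 0. Of 56605 probes that are not controls, 31172 were well above background on at least 1 F/F array. They gave 15358 genes with a value, 14282 measured on both arrays and 1076 on 1 array only, for which the fold is a bound ("at least"). The direction of a bound is set by the array on which the gene was well above background, also in the list counts below. Replicate spots of 1 probe differed with a SD of 0.091 (log2) in F/F chow and 0.097 in F/F HFD, and different probes of 1 gene disagreed in the diet difference with a SD of 0.37 over 4928 genes. Neither spread holds the difference between mice.

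Mboat7, which encodes LPIAT1, had a signal of 1102 in F/F chow, 1181 in F/F HFD, 861 in LKO chow and 1100 in LKO HFD. Its diet difference in F/F was -0.15. Where the probe lies relative to the deleted exons was not determined, so these values do not check the genotype. The tissue label was checked with 14 hepatocyte markers, all of which were well above background on both F/F arrays. Albumin (Alb), the main plasma protein, had signals of 231570 on chow and 221090 on HFD.

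At least 2-fold higher signals on HFD were found for 800 genes (5.21% of the 15358) and at least 2-fold lower ones for 452 (2.94%), 8.15% in all. These shares are the background for the counts of each list below. Bounds made up 177 of the higher and 129 of the lower genes. The remaining 623 and 323 were measured on both arrays. The median difference over all genes was -0.02, the interquartile range of the genes measured on both arrays ran from -0.27 to 0.27, and 47.8% of genes were higher on HFD. At least 4-fold differences were found for 136 genes that were higher and 94 that were lower. The number depended on the background correction: normexp, which adds an offset of 50 and so shrinks differences between dim probes, left 211 genes at least 2-fold higher and 147 lower.

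**Figure D1:**
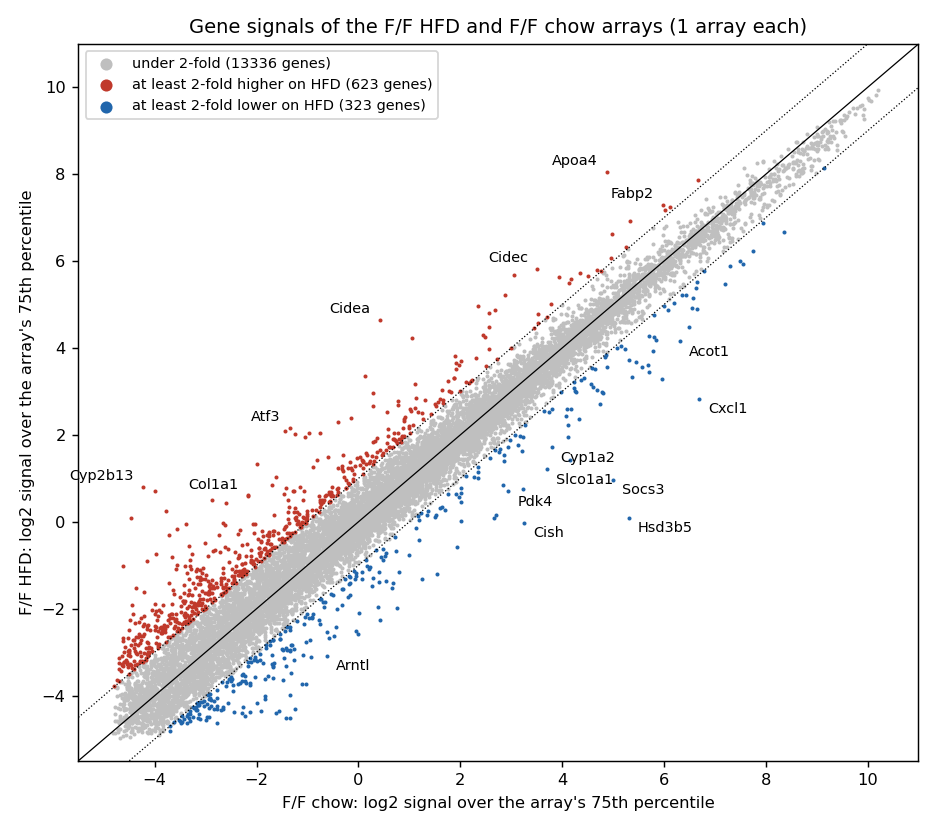
Each point is a gene measured on both F/F arrays, with the log2 signal over the 75th percentile of the array in F/F chow on the x axis and in F/F HFD on the y axis. The solid line marks equality and the dotted lines 2-fold. The 623 red genes lie above the upper dotted line and the 323 blue genes below the lower one. Cyp2b13 and Cidea stand out above, and Hsd3b5, Socs3 and Cxcl1 below.

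Among genes measured on both arrays, the largest rises in signal with HFD were at the cytochrome P450 gene Cyp2b13 (11.7 on chow and 460 on HFD, a log2 difference of 5.05), at Slc22a27 (13.9 and 429, 4.70), a member of the organic anion transporter family, and at Ttc39a (278 on HFD, 4.55). All 3 were close to the lowest signal called above background on chow (7.80), and normexp correction gave them differences of 2.68, 2.60 and 2.27. Cidea, a protein that fuses lipid droplets, came next with signals of 296 and 6616 and a difference of 4.24, which normexp left at 4.09. Rad51b, a DNA repair gene, went from 81.7 to 1118 (3.53), and Atf3, a stress-induced transcription factor, from 86.9 to 1175 (3.51). Slc22a29 (4.01), the chitinase-like protein gene Chil1 (3.59), the signalling adaptor gene Stap1 (3.40) and the T cell signalling gene Themis (3.40) completed the 10 highest, each from a dim signal on chow, and normexp gave these 4 genes differences between 1.35 and 2.13. With the mean of all probes the difference was 1.11 for Themis and 1.94 for Rad51b. Among bounds, the highest were Sdcbp2 (at least 24.4-fold), the macrophage elastase gene Mmp12 (17.5-fold), the peroxisomal oxidase gene Hao2 (12.2-fold), the macrophage glycoprotein gene Gpnmb (11.5-fold) and the synaptic vesicle gene Sv2b (10.7-fold). With normexp the log2 differences of these 5 genes lay between 0.98 and 1.84.

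At the other end, Hsd3b5, a steroid dehydrogenase gene that male liver expresses, had a signal of 8835 on chow and 281 on HFD, a difference of -5.22. Socs3, a feedback inhibitor of cytokine signalling, followed with 7072 and 515 (-4.03), and Cxcl1, a neutrophil-attracting chemokine, with 22969 and 1870 (-3.87). Cish, a feedback inhibitor in the growth hormone pathway, had 2122 and 258 (-3.29). All 4 were bright on chow, and normexp left their differences between -4.90 and -3.02. The other 6 of the 10 lowest were Mrgpra2a (-3.19), Tmem89 (-3.09), E030018B13Rik (-3.06), Gm16551 (-2.80), the non-coding RNA Meg3 (-2.80) and the pseudogene Serpina4-ps1 (-2.74). Normexp left -2.01 for Serpina4-ps1, about 2-fold for Meg3 and between -1.26 and -1.06 for the other 4. The lowest bounds were Adgrf1, an adhesion receptor (at least 17.1-fold), Gm34628 (15.3-fold), 1700122O11Rik (13.5-fold), the G protein subunit gene Gng3 (10.9-fold) and the corepressor gene Rcor2 (10.4-fold), and with normexp the log2 differences of these 5 lay between -1.74 and -1.16.

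**Figure D2:**
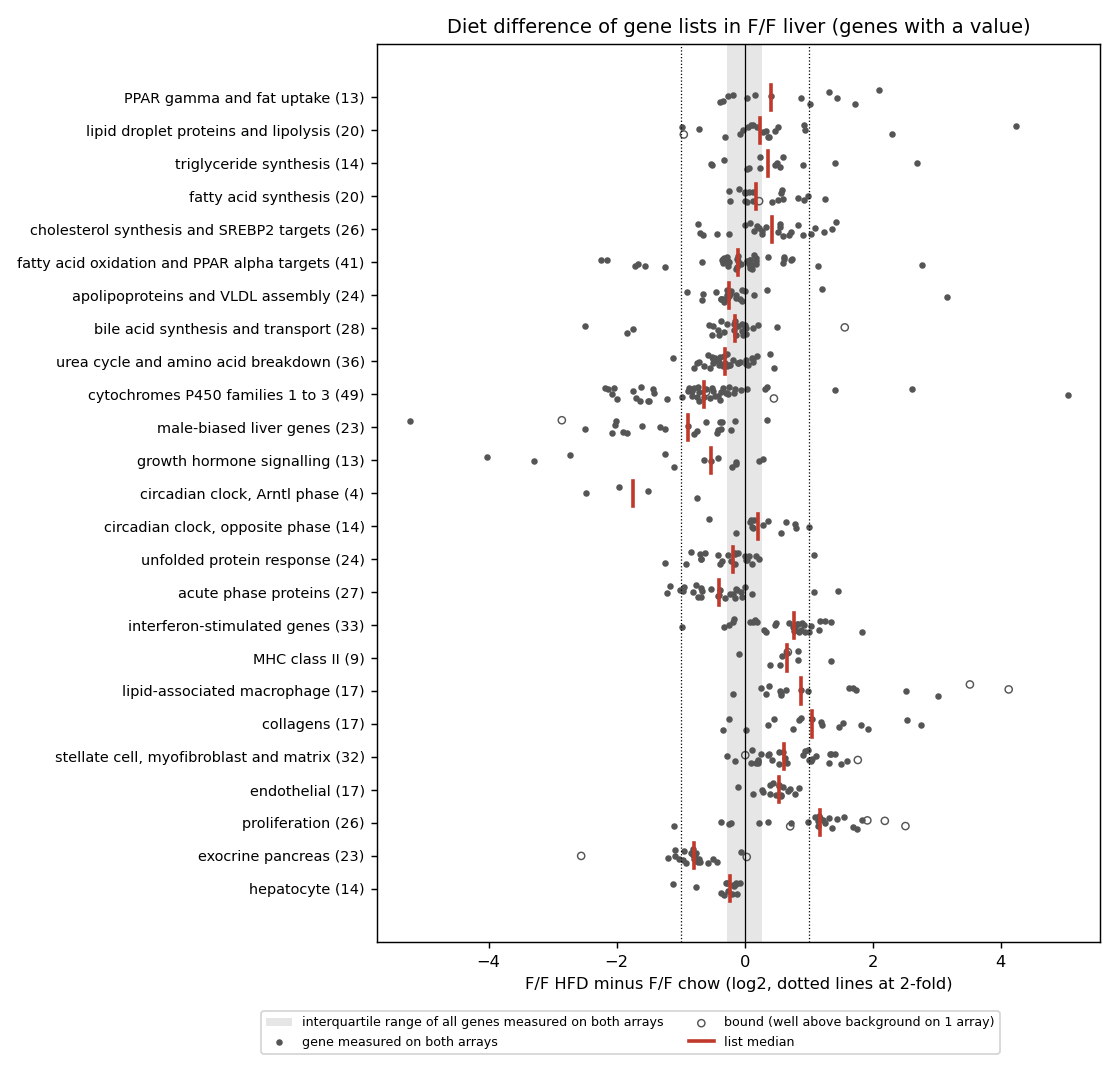
Diet difference in F/F liver (log2, x axis) of the genes in 25 lists, with the number of genes with a value in brackets. Filled points are genes measured on both arrays, open points are bounds, and the red bar is the median of the list. The medians lie to the right for collagens, proliferation and lipid-associated macrophage genes, and to the left for the Arntl phase of the clock, male-biased genes and exocrine pancreas genes.

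Several genes that bring fat into hepatocytes or store it were higher on HFD. Of 13 genes of PPAR gamma and fat uptake, 9 were higher, 5 of them at least 2-fold (38.5%, against 5.21% of all genes). None was 2-fold lower, and the median was 0.42 against -0.02 over all genes. The receptor gene Pparg went from a signal of 815 to 2619 (1.44). Its target Cd36, a fatty acid transporter of the cell surface, went from 484 to 1907 (1.73), and Vldlr, a receptor that takes up triglyceride-rich particles, from 80.0 to 409 (2.11). Fabp2, a fatty acid carrier of the cytosol, had 13975 and 41414 (1.32).

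Of 14 enzymes of triglyceride synthesis, 11 were higher and 2 were at least 2-fold higher (14.3%, against 5.21% of all genes). Both make diacylglycerol from monoacylglycerol: Mogat1 had signals of 169 and 1298 (2.70), and Mogat2 of 34.1 and 108 (1.42, or 0.59 with normexp). Dgat2, which adds the last fatty acid, had 39312 and 48709, a difference of 0.06 that is within the spread of replicate spots. Among 20 lipid droplet proteins and lipases, 14 were higher and 6 lower, with a median of 0.24. At least 2-fold higher were 2 of them (10%, against 5.21% of all genes). The CIDE proteins Cidea and Cidec stood apart from the rest of this list. Cidec had signals of 2533 and 14846, a difference of 2.30. The droplet coat genes Plin4 (1480 and 3343, 0.93) and Plin3 (1984 and 4516, 0.94) were higher by less than 2-fold. Plin2, the main droplet coat of hepatocytes, had 33506 and 41347 (0.06). G0s2, an inhibitor of the lipase ATGL, was lower, with 5188 and 3133 (-0.97).

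In LKO liver these genes started from other levels on chow. The signal of Cidea was 2619 in LKO chow and 2456 in LKO HFD, a difference of -0.56, and that of Pparg differed by -0.06 and of Fabp2 by -0.16 with diet. Mogat1, Cd36 and Vldlr were higher on HFD there too, by 1.01, 1.26 and 1.09.

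**Figure D3:**
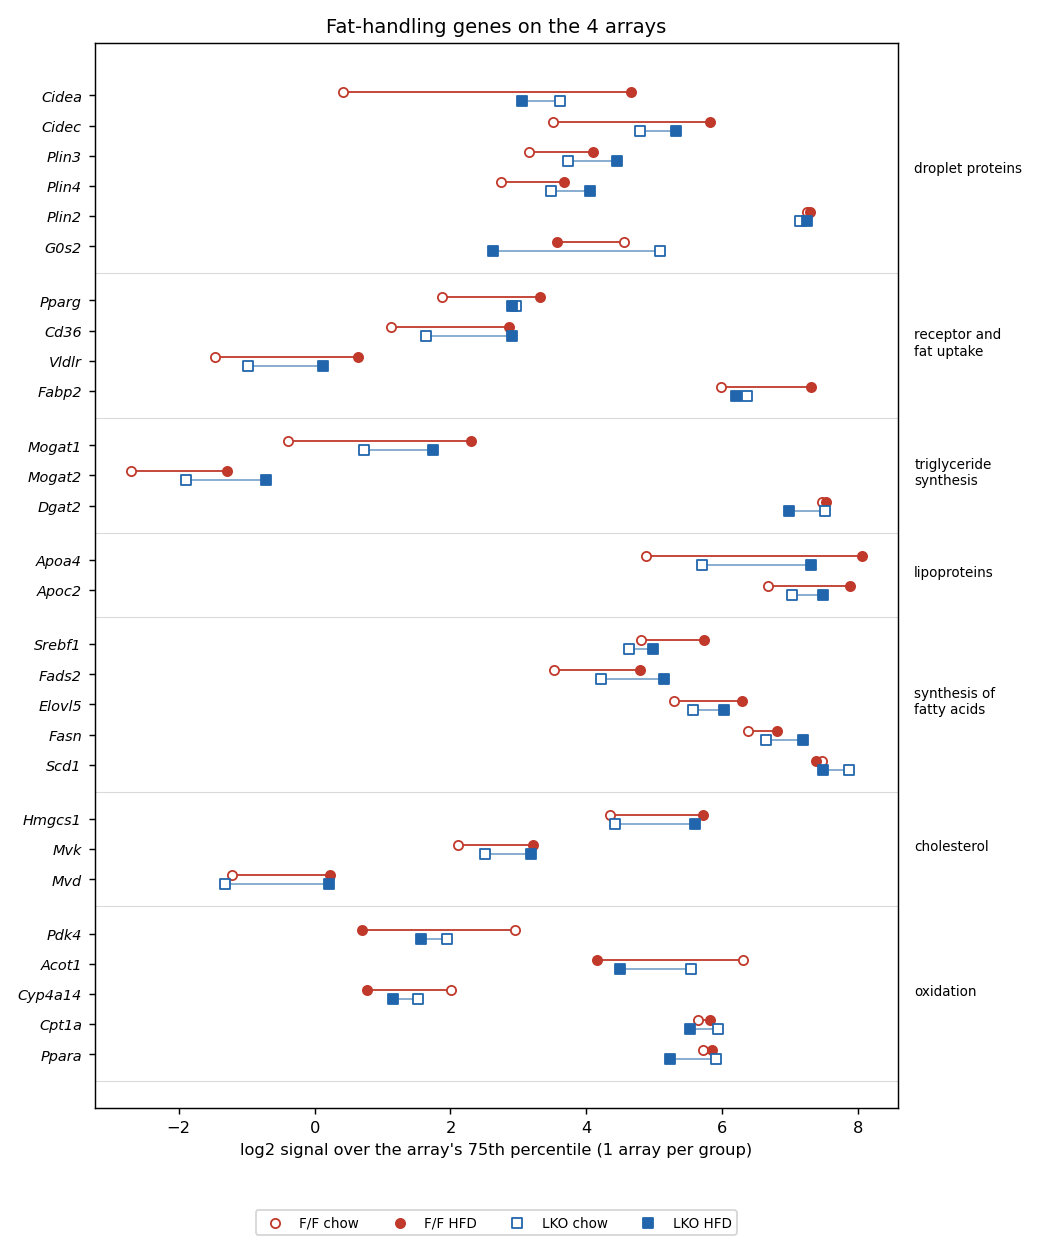
Level of fat-handling genes (log2 signal over the 75th percentile of the array, x axis) on the 4 arrays, 1 array per group. Circles joined by a red line are F/F and squares joined by a blue line are LKO, open for chow and filled for HFD. The F/F line is long for Cidea (4.24), Apoa4 (3.17) and Mogat1 (2.70), and short for Plin2, Dgat2 and Scd1.

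Enzymes of lipid synthesis were higher by smaller amounts. Of 20 genes of fatty acid synthesis, 1 was at least 2-fold higher (5%), near the 5.21% of all genes. In all, 17 of the 20 were higher, with a median of 0.18. Among them were enzymes of polyunsaturated fatty acids: Fads2, a desaturase, with signals of 2549 and 7252 (1.26), Elovl5, an elongase, with 8701 and 20556 (0.99), and Fads1, the other desaturase of that pathway, with 2307 and 4875 (0.83). The other measured probe of Fads1 gave -0.40, and the mean of its probes 0.22. Srebf1, which encodes their regulator SREBP1, had 6161 and 13989 (0.94). Fasn, the fatty acid synthase, had 18343 and 29445 (0.44). Scd1 (-0.09), the main desaturase of saturated fatty acids, and Acly (0.01), which supplies acetyl-CoA, differed by no more than replicate spots did. In LKO liver 10 of the 20 genes were higher on HFD and 10 lower (median 0.03).

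Of 26 genes of cholesterol synthesis and other SREBP2 targets, 21 were higher and 5 at least 2-fold (19.2%, against 5.21% of all genes), with a median of 0.42. Hmgcs1, which makes HMG-CoA, had signals of 4530 and 13855 (1.37), and Mvk, the mevalonate kinase, of 956 and 2433 (1.10, with its other measured probe at 0.64). Mvd, which acts further down the pathway, had 95.9 and 307 (1.43). In LKO liver Hmgcs1 differed by 1.17 and Mvk by 0.67.

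The promoter of Hmgcs1 is shown because it was the only one of the promoters of this list with the letters TCACNCCAC (N for any base), the core of a sterol regulatory element, on either strand. RefSeq promoters of 300 bases, 250 before to 50 after the start site, were at hand for 18 of the 26 genes, and 1.24% of all 32851 such promoters hold the letters. The region is chr13:119690101-119690400 of GRCm38.p6, on the plus strand, and capitals mark the match. A match is a description of the letters and not a site shown to be used.
Hmgcs1: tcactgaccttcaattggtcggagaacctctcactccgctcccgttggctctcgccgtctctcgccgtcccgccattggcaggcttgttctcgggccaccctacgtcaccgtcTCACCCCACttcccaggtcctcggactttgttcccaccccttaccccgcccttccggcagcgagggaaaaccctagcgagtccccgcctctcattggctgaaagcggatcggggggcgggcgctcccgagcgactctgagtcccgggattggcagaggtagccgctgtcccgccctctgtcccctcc

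Genes of fat burning did not move as a group. Of 41 genes of fatty acid oxidation and PPAR alpha targets, 19 were higher and 22 lower, with a median of -0.10. This sign turned under quantile normalization (0.12) and in the deposited table without further scaling (0.0384). The genes of the receptor and of the carnitine step, Ppara (11626 and 15200, 0.14) and Cpt1a (11044 and 14818, 0.18), differed little. The 6 genes at least 2-fold lower held 3 of the fatty acid omega-hydroxylases. Of these Cyp4a31 had 32417 and 11720 (-1.72), and Cyp4a14 896 and 449 (-1.24). Acot1, a thioesterase that frees fatty acids from CoA, went from 17593 to 4701 (-2.15). Pdk4, a kinase that shuts off pyruvate oxidation, went from 1709 to 428 (-2.24). Only Abcd2, a peroxisomal transporter of very long fatty acids (22.2 and 180, 2.78, or 1.30 with normexp), and the mitochondrial uncoupling protein gene Ucp2 (1.15) were at least 2-fold higher. The letters AGGTCA repeated after 1 free base, a PPAR response element on either strand, were in none of the promoters of 30 of these genes or of 19 lipid droplet genes, and in 0.0396% of all promoters.

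The lipoprotein list held 1 outlying gene. Apoa4, an apolipoprotein that fat-laden liver and intestine make, went from a signal of 6537 to 69676 (3.17), while Apoa1, the main HDL protein, had 53640 and 49568 (-0.36). Apoc2, the cofactor of lipoprotein lipase, was also higher (22562 and 61953, 1.21). Of the 24 genes of apolipoproteins and VLDL assembly 19 were lower, with a median of -0.24 that became 0.0056 under quantile normalization. Mttp, which loads lipid onto apolipoprotein B, had 3220 and 2966 (-0.37).

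Bile acid genes were lower in 20 of 28 cases (median -0.14). The 3 genes at least 2-fold lower were Slco1a1, an uptake transporter (2886 and 607, -2.50), Cyp7b1, which hydroxylates oxysterols (12180 and 4027, -1.84), and Cyp2c70, which makes the muricholic acids of rodents (22151 and 7885, -1.74). Cyp7a1, the rate-limiting enzyme of the classical pathway, had 1274 and 1472 (-0.04). Of 28 genes of glucose metabolism and insulin signalling 14 were higher and 14 lower, with a median of -0.02 that 5 alternatives turned above 0 (up to 0.23). Ppp1r3g, which brings a phosphatase to glycogen, went from 1308 to 5890 (1.92), and G6pc, the last enzyme of glucose release, from 8475 to 21036 (1.06). Irs2, an insulin receptor substrate, went from 2060 to 818 (-1.58), and Igfbp2, a binding protein of insulin-like growth factors, from 9657 to 3364 (-1.77). Pck1, the PEPCK gene, differed little (-0.13). In LKO liver G6pc was lower on HFD, by -0.86.

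Enzymes that break down amino acids and make urea were lower in 27 of 36 cases (median -0.31), with Cps1, the first enzyme of the urea cycle, at 7878 and 4326 (-1.11, or -0.99 with normexp). The list of periportal genes, which shares members with it, had a median of -0.37 and the pericentral list of -0.07, which 2 alternatives turned above 0 (up to 0.06). Among pericentral genes Cyp1a2 was lower (3080 and 868, -2.08), while the glutamine synthetase gene Glul was higher (13769 and 21408, 0.39). These lists are made of bright genes, and bright genes as a whole lay low: the 300 brightest genes had a median of -0.23, with 15.0% of them higher on HFD. The 14 hepatocyte markers were all lower (median -0.22), as were 78 of 80 genes of cytosolic ribosomal proteins (median -0.25). Under quantile normalization the hepatocyte median was 0.0104. What part this property of bright probes has in the small negative medians was not tested.

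Cytochromes P450 that oxidise drugs and steroids were lower in 42 of 49 cases (median -0.64), and 14 were at least 2-fold lower, against 2.94% of all genes. Bounds were 2 of the 49, and the 47 measured on both arrays had a median of -0.71. Cyp3a11, a main drug-metabolising enzyme of mouse liver, had signals of 19953 and 5926, 4.00-fold lower, Cyp3a16 of 9158 and 2638 (-2.04), and Cyp2c55 of 159 and 42.9 (-2.13, or -1.33 with normexp). Against them stood 3 members of 1 subfamily, the only genes of the list at least 2-fold higher. Beside Cyp2b13 they were Cyp2b9 (1855 and 13483, 2.62) and Cyp2b10 (3998 and 12656, 1.42). The other measured probe of Cyp2b10 gave 0.12, and the mean of its probes was 0.77, less than 2-fold. Members of such families have similar sequences, and a probe may take up signal from its neighbours. In LKO liver Cyp2b10 was lower on HFD (-0.62) and Cyp2b9 higher by 0.59. Of 39 conjugation enzymes 25 were lower (median -0.18), with Ugt2b1, a glucuronosyltransferase, at 5732 and 2165 (-1.65), Gstp1, a glutathione transferase, at 21988 and 11002 (-1.25), and Mgst3, a microsomal one, at 548 and 1835, 2.82-fold higher.

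Genes that male liver expresses above female liver were lower on HFD as a group. The bias comes from the pulses in which males release growth hormone, which act through STAT5. Of 23 male-biased genes 22 were lower, 11 of them at least 2-fold (47.8%, against 2.94% of all genes), with a median of -0.88. Besides Hsd3b5, Slco1a1 and Cyp7b1 they included the omega-hydroxylases Cyp4a12a (5975 and 1735, -2.03) and Cyp4a12b (11397 and 3209, -2.08), the complement gene C8b (10503 and 3109, 4.01-fold lower) and Elovl3, an elongase (8852 and 3466, -1.60). The 16 female-biased genes with a value were split, with 8 higher and 8 lower (median -0.16, or 0.0677 with no filter). Cyp2b13, Hao2, Abcd2 and Cyp2b9 were among 5 that were at least 2-fold higher, and Cyp3a16 among 3 that were at least 2-fold lower. Hao2 is a bound and could only count as higher. Over the 15 genes measured on both arrays the median was -0.33. The probe of Cyp3a16 may take up signal from its neighbours, as stated above for such families. Cux2, a transcription factor of female liver, and Sult2a1, a sulfotransferase, were in F/F not well above background.

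Genes of growth hormone signalling, from the receptor to feedback targets, were lower too. Of 13 genes 11 were lower and 5 at least 2-fold (38.5%, against 2.94% of all genes), with a median of -0.53. Besides Cish and Socs3, Socs2, a feedback target of STAT5, went from 645 to 115 (-2.73) and Socs1 from 58.0 to 28.9 (-1.25, or -0.58 with normexp). Igf1, the growth factor the liver secretes in response to growth hormone, had 30166 and 24790 (-0.53), and Bcl6, a transcriptional repressor more abundant in male liver, 1169 and 1628 (0.23). In LKO liver the male-biased list had a median of -0.98, with Hsd3b5 at 3997 and 44.5 (-6.96). Cish, Socs3 and Socs2 differed by -1.18, -1.06 and -0.59 there, from lower signals on chow.

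**Figure D4:**
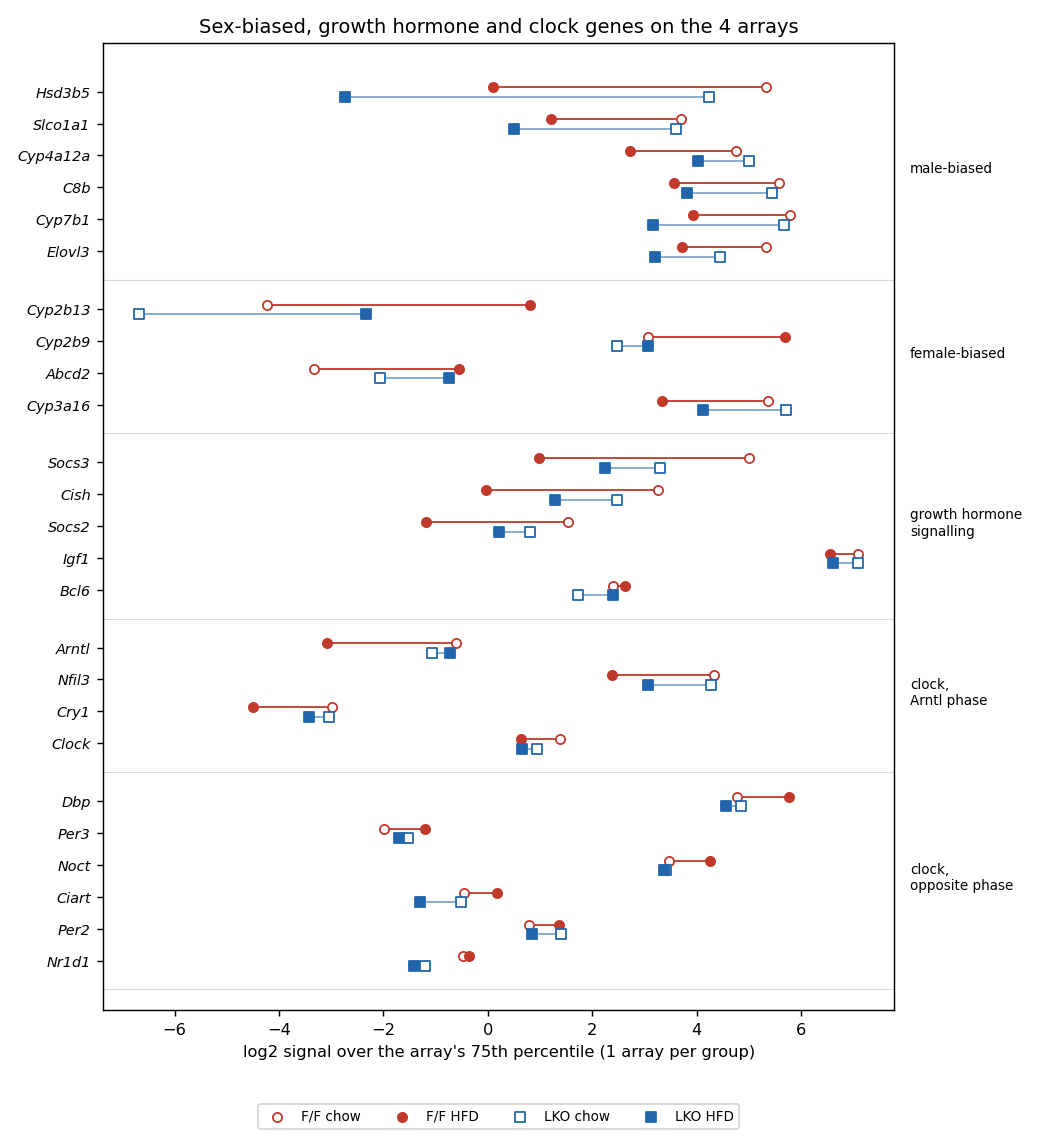
Level of sex-biased, growth hormone and clock genes (log2 signal over the 75th percentile of the array, x axis) on the 4 arrays, 1 array per group. Symbols are as for the fat-handling genes: circles F/F, squares LKO, open chow, filled HFD. In F/F the filled circle lies left of the open one for all male-biased genes shown and for the Arntl phase of the clock, and right of it for Dbp, Noct and Per3.

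Clock genes of opposite phase went in opposite directions in F/F liver. The clock runs as a loop in which CLOCK and BMAL1, the product of Arntl, switch on Dbp and the Per genes, whose RNA peaks about opposite to that of Arntl. Arntl had a signal of 145 on chow and 31.0 on HFD (-2.47, or -1.38 with normexp), Nfil3, a repressor of the D-box, 4460 and 1363 (-1.96), Cry1 28.1 and 11.7 (-1.51, or -0.50 with normexp) and Clock 574 and 409 (-0.74). In F/F, the signal of Npas2 was not well above background. In the opposite group 12 of 14 genes were higher (median 0.22), led by the D-box activator Dbp (6034 and 14397, 1.01), the nocturnin gene Noct (2446 and 5038, 0.80) and Per3 (55.5 and 115, 0.80, or 0.42 with normexp), followed by Ciart (162 and 299, 0.64) and Per2 (382 and 673, 0.57). The other measured probe of Per2 gave -0.39, and the mean of its probes 0.09. Nr1d1, which encodes the repressor REV-ERB alpha, had 159 and 204 (0.11). In LKO liver Arntl differed by 0.33 and the opposite group was lower in 14 of 14 genes (median -0.36). The hour of collection of each liver is not given, and hour and diet cannot be told apart.

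The promoters of Ciart and Per3 are shown because they hold several copies of the letters through which this loop is known to act. CACGTG, the E-box, was in promoters of 4 of the 12 genes of the opposite group found in the RefSeq table (35.7% of 14 promoters, against 7.15% of all), and TTATGTAA, the D-box, in that of 1 gene (7.14%, against 0.938% of all). The 3 genes with an E-box and a value were all higher. Ciart lies at chr3:95882179-95882478, minus strand, with E-boxes in capitals that start 116, 58 and 44 bases before the start site. Per3 lies at chr4:151044616-151044915, minus strand, with D-boxes in capitals that start 205 and 158 bases before it.
Ciart: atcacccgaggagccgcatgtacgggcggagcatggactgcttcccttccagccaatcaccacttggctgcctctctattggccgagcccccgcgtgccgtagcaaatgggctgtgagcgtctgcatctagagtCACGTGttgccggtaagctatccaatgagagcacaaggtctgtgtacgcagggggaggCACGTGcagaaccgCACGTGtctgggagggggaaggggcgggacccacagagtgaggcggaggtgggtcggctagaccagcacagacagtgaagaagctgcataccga
Per3: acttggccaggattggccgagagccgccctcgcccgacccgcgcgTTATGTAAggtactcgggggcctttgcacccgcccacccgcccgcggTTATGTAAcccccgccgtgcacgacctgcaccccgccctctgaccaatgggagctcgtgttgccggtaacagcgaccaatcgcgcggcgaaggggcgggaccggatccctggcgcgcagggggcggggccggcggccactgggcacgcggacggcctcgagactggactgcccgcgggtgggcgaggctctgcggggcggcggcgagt

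Stress genes were split between pathways. Of 21 ATF4 targets of the integrated stress response, which cells switch on when translation is held back, 11 were higher and 10 lower (median 0.00). At least 2-fold higher were 6, against 5.21% of all genes. Besides Atf3, Gdf15, a secreted stress hormone, went from 1422 to 7757 (2.20) and Trib3, a pseudokinase that blunts insulin signalling, from 501 to 1521 (1.36). Asns, the asparagine synthetase, went from 214 to 111 (-1.19, or -0.91 with normexp), and Ddit3, which encodes CHOP, had 124 and 143 (-0.04). In contrast, 16 of 24 genes of the unfolded protein response were lower (median -0.18). Creld2, a chaperone of the endoplasmic reticulum, had 8323 and 4162 (-1.25), Xbp1, a transcription factor of that response, 23582 and 14848 (-0.91), and Hspa5, the chaperone BiP, 23259 and 17981 (-0.62). Derl3, a factor of protein export for degradation, was higher (207 and 523, 1.09, or 0.89 with normexp).

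The promoters of Creld2 and Hspa5 are shown as examples. Both genes were lower in F/F and in LKO liver (-1.09 and -0.70 in LKO), where 23 of 24 genes of the list were. Both hold the ER stress response element, the letters CCAAT and CCACG with 9 free bases between them on either strand. Canx, Dnajc3, Ero1b, Hsp90b1 and Syvn1 also hold it and were lower in F/F and LKO liver. Of the 21 genes of the list with a promoter, 10 hold it (45.5% of 22 promoters, against 0.119% of all). Of those 10, 7 were lower and 3 higher in F/F liver. Creld2 lies at chr15:88819396-88819695, plus strand, and Hspa5 at chr2:34771840-34772139, plus strand, with the whole element in capitals.
Creld2: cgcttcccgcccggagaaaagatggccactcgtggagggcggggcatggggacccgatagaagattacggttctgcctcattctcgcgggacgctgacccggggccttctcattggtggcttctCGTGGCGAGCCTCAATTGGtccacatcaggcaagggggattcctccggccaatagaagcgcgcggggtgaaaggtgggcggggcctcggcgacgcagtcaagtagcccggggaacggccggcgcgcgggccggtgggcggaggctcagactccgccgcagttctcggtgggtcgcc
Hspa5: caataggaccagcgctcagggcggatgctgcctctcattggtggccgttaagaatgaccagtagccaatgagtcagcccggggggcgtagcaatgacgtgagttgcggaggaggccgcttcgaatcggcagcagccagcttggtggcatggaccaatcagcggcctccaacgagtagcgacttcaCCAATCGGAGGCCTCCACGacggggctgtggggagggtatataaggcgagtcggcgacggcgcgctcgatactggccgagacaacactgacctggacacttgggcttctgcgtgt

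Among immediate early genes Nr4a1, a nuclear receptor (477 and 2356, 2.06), and Egr2 (24.7 and 124, 2.07, or 0.92 with normexp) were higher, while Junb, a subunit of AP-1 (21172 and 9358, -1.43), and Myc (165 and 65.4, -1.58) were lower, and the 22 genes had a median of 0.11. Of 23 targets of NRF2, the regulator of antioxidant genes, 15 were higher (median 0.14). Cbr3, a carbonyl reductase (272 and 945, 1.55), Nqo1, a quinone reductase (65.8 and 209, 1.42, or 0.91 with normexp), and Srxn1, which repairs peroxiredoxins (2412 and 5781, 1.01), were at least 2-fold higher, while Osgin1 was lower (3827 and 1023, -2.15). The core TGACNNNGC of the antioxidant response element was in 29.6% of 27 promoters of the list, against 12.4% of all, and of the 7 genes that hold it 4 were higher and 3 lower.

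Secreted plasma proteins were mostly lower. Of 27 acute phase proteins, made by the liver under inflammation, 23 were lower (median -0.39). The serum amyloid genes Saa1 (87831 and 78366, -0.41) and Saa2 (144750 and 119420, -0.52) were bright on both arrays. Fga, a fibrinogen chain, had 16334 and 8607 (-1.17), and Steap4, a metalloreductase, 1706 and 870 (-1.22). Il1rn, the interleukin 1 receptor antagonist, was higher (69.5 and 226, 1.45, or 0.98 with normexp). Of 40 genes of complement and coagulation 32 were lower (median -0.28). Many genes of both lists are bright, and of the 300 brightest genes 15.0% were higher on HFD (median -0.23). What part this has in the medians of both lists was not tested. In iron handling Hamp, the hormone hepcidin, had 25484 and 16834 (-0.85), and the transferrin receptor gene Tfrc 193 and 79.0 (-1.53), in a list of 20 genes with a median of -0.07, which 3 alternatives turned above 0 (up to 0.10).

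Macrophage genes were higher on HFD, those of lipid-associated macrophages most. Such macrophages gather around lipid and dying cells in fatty tissue. Of 17 of their genes 16 were higher and 7 at least 2-fold (41.2%, against 5.21% of all genes, median 0.88). Mmp12 and Gpnmb are bounds, well above background on the HFD array only, and could only count as higher. Over the 15 genes measured on both arrays the median was 0.65. Trem2, a lipid receptor that marks them, had signals of 36.7 and 353 (3.02, or 1.86 with normexp), and Itgax, which encodes CD11c, of 23.0 and 157 (2.52, or 1.20 with normexp). The brighter Spp1, osteopontin, had 840 and 3314 (1.73), and Lgals3, galectin 3, 900 and 3438 (1.69). Kupffer cell markers were higher in 11 of 15 cases and none by 2-fold (median 0.39), with Cd5l at 8540 and 16520 (0.70), Clec4f at 2748 and 4327 (0.41) and the scavenger receptor Cd163 at 659 and 525 (-0.58). Timd4, a marker of long-lived resident cells, had 152 and 168 (-0.10).

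Genes of antigen presentation and interferon response were higher as well. Of 9 MHC class II genes with a value 8 were higher (median 0.67), such as the invariant chain Cd74 (1866 and 2930, 0.40) and Ciita, their master regulator (57.5 and 174, 1.35, or 0.78 with normexp and -0.12 at its other measured probe). Of 33 interferon-stimulated genes 28 were higher and 7 at least 2-fold (21.2%, against 5.21% of all genes, median 0.77). Oas1a, an antiviral enzyme, had 529 and 1499 (1.25), Cxcl10, a T cell attractant, 247 and 662 (1.18, or 0.99 with normexp), and Psmb9, an immunoproteasome subunit, 1038 and 2538 (1.04). Irf7, a regulator of the response, had 5231 and 6975 (0.17). Markers of T, NK and B lymphocytes showed no common direction, with 9 of 19 higher (median -0.16, which became 0.0197 with the mean of all probes and 0.0705 with no filter). Cd3e, a chain of the T cell receptor complex, had 385 and 337 (-0.44, or -0.20 at its other measured probe), and Gzma, a granzyme, 94.0 and 214 (0.94, or 0.60 with normexp). Of 16 monocyte and neutrophil markers 11 were higher (median 0.07), with Ly6c2, a marker of inflammatory monocytes, at 653 and 1791 (1.21) and the neutrophil gene S100a8 at 957 and 1159 (0.03).

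Chemokines differed in both directions. Of 33 ligands and receptors 12 were at least 2-fold higher and 4 at least 2-fold lower (median 0.62, or 0.27 with normexp). The shares of all genes were 5.21% and 2.94%. Bounds were 3 of the 33, and the 30 measured on both arrays had a median of 0.67. The monocyte attractant Ccl2 went from 99.8 to 461 (1.96) and Ccl4 from 12.4 to 141 (3.26, or 1.36 with normexp), while the neutrophil attractant Cxcl1 and the B cell attractant Cxcl13 (855 and 175, -2.54) were lower on HFD. Among cytokines and the NF-kB pathway Tnf had 290 and 67.6 (-2.35, or -0.45 with the mean of its probes), Il1r1, a receptor of interleukin 1, 1618 and 699 (-1.46), and Il1b 174 and 179 (-0.21), although 19 of 28 genes were higher (median 0.35).

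Collagens and other matrix genes were higher. Of 17 collagen genes 15 were higher and 9 at least 2-fold (52.9%, against 5.21% of all genes). The median was 1.05, or 0.74 with normexp. The chains of the fibrils of scar tissue led the list: Col1a1 had signals of 49.1 and 395 (2.76), its 2 other measured probes gave 2.84 and 3.06, Col3a1 had 201 and 1383 (2.54), and Col1a2 380 and 1711 (1.92). Col4a1, of the basement membrane, had 172 and 377 (0.89). Of 32 genes of stellate cells, myofibroblasts and matrix 30 were higher and 11 at least 2-fold (34.4%, against 5.21% of all genes, median 0.62). Bounds were 2 of the 32. Loxl2, which cross-links collagen, had 66.0 and 223 (1.51, or 0.51 at its other measured probe), Acta2, the actin of myofibroblasts, 947 and 1626 (0.53), Lrat, which stores retinol in stellate cells, 123 and 221 (0.60, or 0.38 with normexp), and Timp1, an inhibitor of matrix proteases, 389 and 553 (0.26). Endothelial markers were higher in 16 of 17 cases and none by 2-fold (median 0.54), for example Stab2 of the sinusoids (1675 and 2899, 0.54), while Pecam1 had 62.0 and 68.9 (-0.10). Among 10 cholangiocyte markers, 2 of them bounds, 6 were higher (median 0.21, or -0.00067 with normexp). Krt19, a bile duct keratin, had 61.3 and 109 (0.59, or 0.33 with normexp) and Sox9 145 and 45.2 (-1.93, or -1.14 with normexp).

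Cell cycle genes were higher as well. Of 26 proliferation genes 22 were higher and 17 at least 2-fold, against 5.21% of all genes (median 1.17). Bounds were 4 of the 26, and the 22 measured on both arrays had a median of 1.15. Most were dim, and normexp brought the median to 0.45, below the 0.74 that it left for collagens. Mki67, the marker of dividing cells, had 35.3 and 93.8 (1.16), Top2a, a topoisomerase, 15.0 and 44.7 (1.32), and Cdc20, of mitotic exit, 25.8 and 109 (1.84). With normexp these 3 differed by 0.46, 0.39 and 0.81. The brighter Ccnd1, cyclin D1, went from 411 to 1326 (1.44).

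Markers of cells that a piece of liver can carry along also moved. Of 11 red blood cell genes 8 were higher and 3 lower (median 0.64). The globin genes Hba-a1 (15433 and 39794, 1.12), Hba-a2 (14386 and 37824, 1.15), Hbb-bt (3531 and 8361, 0.997) and Hbb-b1 (432 and 1016, 0.99) were higher. Alas2, on the same list, was lower (-0.42). The sum of the list, as multiples of the 75th percentile, was 1111 in F/F chow and 1133 in F/F HFD. In this sum the rises of the globin genes were offset by lower levels of other genes of the list. Of 6 platelet genes 5 were higher (median 0.78), with sums of 0.799 and 1.66, and Pf4 at 111 and 313 (1.25, or 0.97 with normexp). Bounds were 3 of the 6 and could only count as higher. Of the 3 measured on both arrays, Pf4 and Ppbp were higher, and Gp6 was lower by less than the spread of replicate spots. Of 23 exocrine pancreas genes 22 were lower on HFD (median -0.80), with sums of 66.4 and 37.0, and the amylase gene Amy2a5 had signals of 2771 and 1553 (-1.08, or -0.32 at its other measured probe). None of these 3 lists had a defining marker at 0, although 3, 2 and 3 of their genes were in F/F not well above background. Of 12 adipocyte markers 7 were lower (median -0.20, or 0.11 with the mean of all probes). Adipoq, the adipocyte hormone adiponectin, had 69.6 and 26.1 (-1.66, or -0.74 with normexp), Retn, resistin, 58.5 and 12.8 (-2.44, or -0.92 with normexp), and Lep, leptin, 238 and 234 (-0.27). Cidec and Cfd (1246 and 5005, 1.76), which are on the same list, were higher. The part of these cells in the differences given above for immune, platelet, matrix and fat storage genes was not tested.

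Housekeeping groups differed little. Of 89 genes of the respiratory chain 39 were higher and 50 lower (median -0.03), and of 38 proteasome genes 10 were higher (median -0.08). The 25 genes of the phosphatidylinositol cycle, in which LPIAT1 acts, had a median of -0.02. Each of these 3 medians turned above 0 under some scalings, up to 0.14, 0.06 and 0.11. The phosphatidylinositol synthase gene Cdipt had 3034 and 3868 (0.10). Pla2g4a, a phospholipase that frees arachidonic acid, was the only one of them at least 2-fold different (40.6 and 106, 1.14, or 0.55 with normexp).

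The diet pair of LKO liver shares no array with the F/F pair, and its genotype differs, so that it is no replicate. In it 1238 of 15242 genes (8.12%) were at least 2-fold higher on HFD and 621 (4.07%) at least 2-fold lower. Of the 602 genes at least 2-fold higher in F/F and measured on all 4 arrays, 362 (60.1%) were at least 2-fold higher in LKO, where 6.93% of all 13981 genes measured on all 4 arrays were. They are 37.4% of the 969 such genes of LKO. Of the 307 genes at least 2-fold lower in F/F, 170 (55.4%) were at least 2-fold lower in LKO, against 3.31% of all, and they are 36.7% of 463. At least 2-fold differences in opposite directions were found for 2 and 5 genes. Col1a1 (2.58), Col3a1 (2.29), Atf3 (1.82) and Rad51b (3.86) were higher on HFD in LKO as well, and Slco1a1 (-3.10), Cyp7b1 (-2.52) and Cyp1a2 (-1.93) lower.

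**Figure D5:**
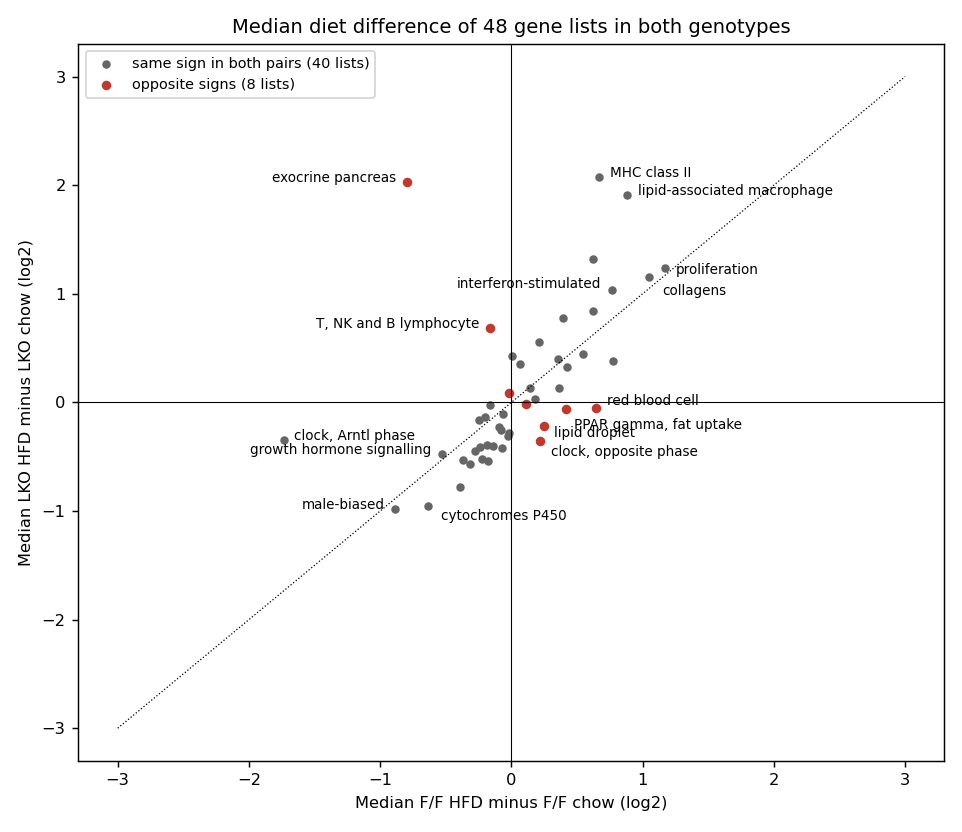
Median diet difference (log2) of each of 48 gene lists in F/F liver (x axis) and LKO liver (y axis). The dotted line marks equal medians. In 40 lists, grey, both medians had the same sign. The 8 red lists had opposite signs, and exocrine pancreas genes lay farthest from the line, at -0.80 and 2.03.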

How the data were processed

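Each of the 4 groups, F/F or LKO liver with chow or HFD, has 1 one-colour Agilent array (Cy3), and all lie on 1 slide with 1 scan. Per the submitters' processing notes, Agilent Feature Extraction 12.0.3.1 read the arrays, and the authors deposited the intensity of every spot after background subtraction, together with the median spot and local background signal and flags. A table of values, also deposited, holds the same intensity times 1 factor per array (2.60 and 2.41 for the chow and HFD arrays of F/F, 2.63 and 2.10 for those of LKO), and how the factors were made is not given in the sources used here.

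From the deposited intensity of the spots that are not controls, log2 minus the 75th percentile of the array was computed (Python 3.11.15, pandas 2.3.3, numpy 2.4.6). Outlier spots were left out (132 of 59305 in F/F chow and 95 in F/F HFD), and no spot was saturated. Spots well above background made up 54.2% in F/F chow and 54.6% in F/F HFD, and 1 array per group limits the precision. Accessions of 33767 of 56605 probes matched 23462 symbols in the RefSeq gene table. Where a gene had several probes (8057 genes), the brightest on average across the series stood for it. A gene well above background on 1 array of a pair has a bound against the higher of the lowest signal well above background (7.80 in F/F chow, 8.35 in F/F HFD) and its own signal.

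No test was made. A difference of at least 2-fold was called. The genes named are the 10 most raised and 10 most lowered among those measured on both F/F arrays, the 5 highest bounds each way, Mboat7, and in each of 48 lists its key genes and the 4 members that differed most, and Ucp2 was added after its value was seen. Some of these genes are not reported here. The comparison, the lists and the named genes were chosen with earlier results of these data known, and some lists share genes. Simulated data set a copy of the F/F chow array against itself with noise, with 200 of 23462 genes changed 4-fold. Of these, 191 were recovered in the right direction and 0 others were called. The copy holds no difference between mice or arrays, so this run cannot show how many calls between livers are false. Alternatives were normexp correction with offset 50 (limma 3.58.1, R 4.3.3), on the median spot signal because the files give no mean, other normalisations, the deposited table, other filters, the mean of probes and thresholds of 1.5-fold and 4-fold. Promoter sequences are those of RefSeq on GRCm38.p6, and figures were drawn with matplotlib 3.10.9.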

Additional observations from a re-analysis of the deposited data

Results flagged for a closer look

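Genes and lists are given here because their diet difference had opposite signs in F/F and LKO liver. With 1 array per group these differences between genotypes were not tested. Cfd, the complement factor D that adipocytes secrete, differed by 1.76 in F/F and by -2.23 in LKO. Digestive enzyme and granule genes of the exocrine pancreas were lower on HFD in F/F and higher in LKO: Amy2a5 (-1.08 and 1.53), Try4 (-1.20 and 1.85), Try5 (-1.03 and 1.97) and Zg16 (-1.09 and 2.33). The list of 23 exocrine pancreas genes had medians of -0.80 and 2.03, with summed levels, as multiples of the 75th percentile, of 66.4 in F/F chow, 37.0 in F/F HFD, 42.4 in LKO chow and 82.1 in LKO HFD.

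Lipid droplet genes had a median of 0.24 in F/F and -0.22 in LKO. Clock genes of the phase opposite to Arntl had medians of 0.22 and -0.36. Markers of T, NK and B lymphocytes had medians of -0.16 and 0.68.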

How the results depend on the processing

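The number of genes at least 2-fold higher was 800 and lower 452. Both moved by more than 1.5 times with normexp correction (211 and 147), with no filter and no floor (1366 and 1351), and at thresholds of 1.5-fold (2033 and 1474) and 4-fold (136 and 94). Under the other alternatives they lay between 623 and 1075 and between 323 and 460. Of the genes called, 63.9% were higher, against 76.1% in the deposited table without further scaling, 58.9% with normexp and 50.3% with no filter and no floor. That table moved the median of the genes measured on both arrays from -0.03 to 0.10, and every list with it. Of 40 lists whose median lay farther from 0 than the spread of replicate spots (0.0966), 7 changed sign under some alternative, namely hepatocyte (0.0104), fatty acid oxidation (0.12) and apolipoproteins (0.0056) under quantile normalization, fatty acid oxidation in the deposited table (0.0384), adipocyte (0.11) and T, NK and B lymphocyte (0.0197) with the mean of all probes, female-biased genes (0.0677) and T, NK and B lymphocyte (0.0705) with no filter, and cholangiocyte with normexp (-0.00067). Of the 8 lists nearer to 0, 7 also crossed it: glucose metabolism, pericentral, iron handling, phosphatidylinositol cycle, respiratory chain, proteasome and integrated stress response. The causes were not tested, beyond the offset of normexp, which shrinks dim probes by construction. Dim signals, under about the offset of 50, limit what can be said of cell cycle, lymphocyte and platelet genes. No paired analysis was possible because each group has 1 array.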
